A study of Saccharomyces cerevisiae with 26 samples.

Results

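A-rich stretches of the S. cerevisiae genome can prime reverse transcription from inside a transcript, and the authors removed the positions just upstream of such stretches from their tracks of RNA 3′ ends. The list of removed (masked) positions was examined here around the 16 centromeres. A member was any run of adjacent masked positions on 1 strand that starts within 1000 bp of a centromere center, which gave 689 of the 223663 runs in the list, or 0.308%. The study sequenced 26 libraries of RNA 3′ ends in 18 groups from the strains Mex67-AA and Nab2-AA, both carrying a multicopy plasmid that overexpresses the uridine permease FUI1. Rapamycin was given for 15 min in 12 libraries, to deplete the tagged protein from the nucleus, and was not given in 14. Cells were labeled with 4-thiouracil (4tU) for 2 min for 16 libraries of purified 4tU RNA and for 8 of total RNA. The other 2 libraries were from a mock purification of RNA from cells without 4tU. Of the 26, 17 were from RNA polyadenylated in vitro (pA+,-) and 9 from untreated RNA (pA+). The mask was derived from the genome sequence alone, so that it is the same for every strain and treatment and carries no expression level. No track of a library was analysed. Counts of masked positions have no sampling error and no replicates, and the chromosomes, each with a single centromere, served as the units of comparison.

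Budding yeast has point centromeres, short stretches of DNA that are sufficient to assemble a kinetochore. Each consists of CDEI, which is bound by Cbf1, of CDEII, an AT-rich spacer wrapped around the nucleosome that carries the histone H3 variant Cse4, and of CDEIII, which is bound by the CBF3 complex. CDEI and CDEIII are conserved in sequence, whereas CDEII is conserved in length and in base composition. In the R64 annotation, whose assembly has the sequence of sacCer3, the midpoints of the 16 annotated centromeres lay at most 0.5 bp from the centers used, and no annotated gene overlapped a centromere. The strand that reads from CDEI to CDEIII is called sense below. The central 120 bp of each centromere, which holds all 3 elements, was kept apart from the flanks, which reach from 61 bp to 1000 bp on either side. Shares are masked positions out of the positions of both strands, unless a strand is named.

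The sequences of the 3 central windows with the highest masked shares show where the mask falls. Each is given 5′ to 3′ from RefSeq R64 (sacCer3) on the strand with more masked positions, with masked positions in capitals. A position is masked for the bases after it, so that the As that follow a capital stretch may themselves be in lower case. CEN7 was read from chrVII:496920-497039 on the plus strand, CEN6 from chrVI:148509-148628 on the plus strand, and CEN16 from chrXVI:555956-556075 on the minus strand.
CEN7 antisense: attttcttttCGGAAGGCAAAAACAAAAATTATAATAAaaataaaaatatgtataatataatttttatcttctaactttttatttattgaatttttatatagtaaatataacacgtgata
CEN6 sense: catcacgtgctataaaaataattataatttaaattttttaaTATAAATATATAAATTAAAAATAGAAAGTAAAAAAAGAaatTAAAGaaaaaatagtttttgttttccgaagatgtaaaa
CEN16 antisense: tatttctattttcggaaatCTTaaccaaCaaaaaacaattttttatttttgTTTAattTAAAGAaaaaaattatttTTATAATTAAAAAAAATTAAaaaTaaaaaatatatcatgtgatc

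The 3 windows with the lowest masked shares are shown for contrast, from chrXII:150828-150947 on the minus strand for CEN12, chrXI:440128-440247 on the plus strand for CEN11 and chrIX:355628-355747 on the minus strand for CEN9.
CEN12 sense: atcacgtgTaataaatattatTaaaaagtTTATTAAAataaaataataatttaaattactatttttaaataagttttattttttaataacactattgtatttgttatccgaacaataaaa
CEN11 antisense: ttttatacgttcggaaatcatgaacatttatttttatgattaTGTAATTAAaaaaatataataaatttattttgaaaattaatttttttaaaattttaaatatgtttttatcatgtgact
CEN9 antisense: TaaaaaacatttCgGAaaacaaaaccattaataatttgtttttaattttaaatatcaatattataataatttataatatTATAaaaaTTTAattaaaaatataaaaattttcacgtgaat

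In all 6, the masked positions lay in a few blocks rather than throughout the window. In the CEN7 sequence, a single run of 28 positions covered part of CDEIII and the adjoining part of CDEII. In the CEN6 sequence, a run of 38 positions within CDEII was the longest of all 689 members.

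**Figure D1:**
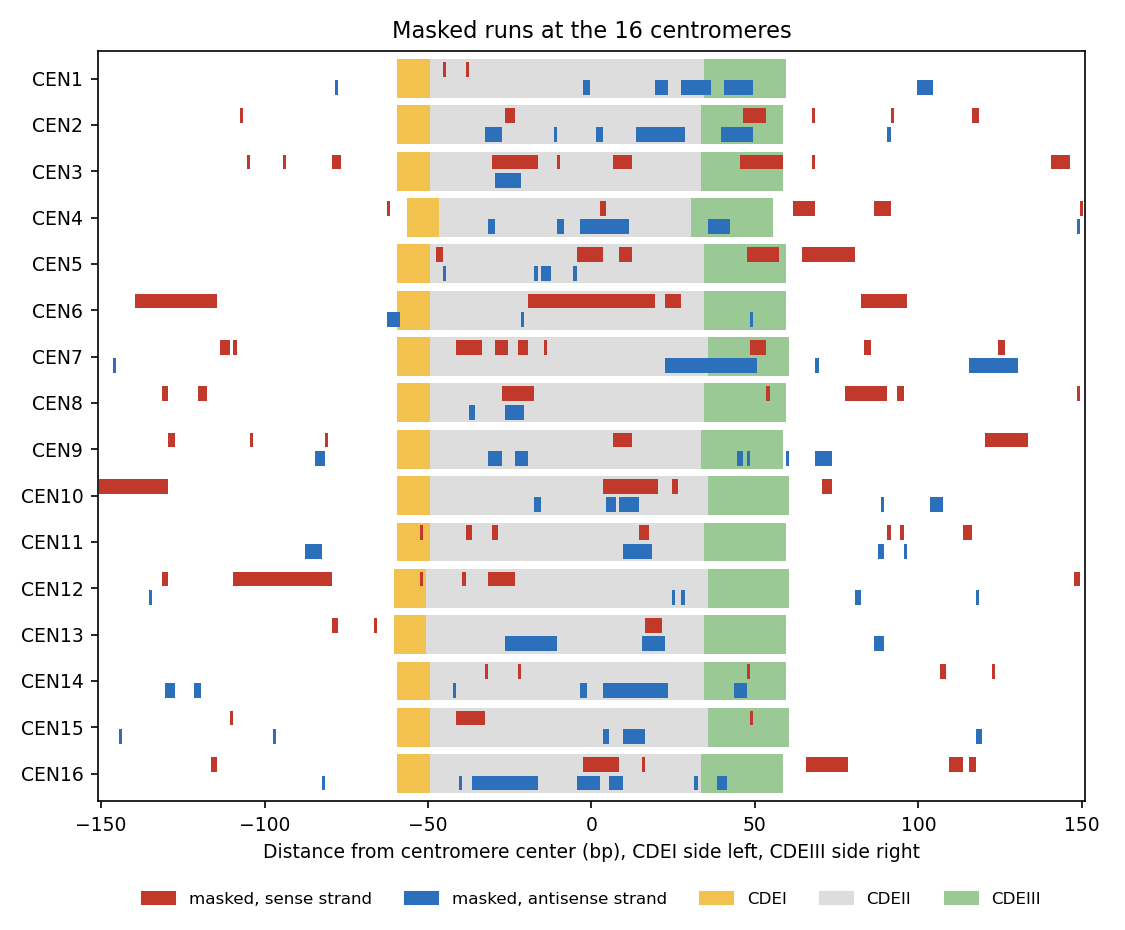
Runs of masked positions within 150 bp of the 16 centromere centers, drawn by distance from the center in bp (x axis) for each centromere (y axis), with the sense and antisense strands as separate rows and CDEI, CDEII and CDEIII shaded. Most masked positions of the centers lie in CDEII, the longest element, and CDEI is nearly free of them. Many centromeres have most of their central runs on 1 strand.

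The first comparison asked whether the centers are masked more than the DNA around them. With the deposited mask and both strands pooled, the central 120 bp was masked more than the flanks on every chromosome. The center was set apart for its A+T content and the mask selects As, so that the direction was largely given by the choice of zone, and the test is no independent evidence of it. The masked share averaged 12.6 ± 4.96% in the centers and 3.14 ± 0.852% in the flanks (SD, n = 16), a ratio of means of 4.00. The difference was 9.41 percentage points (95% interval 6.88 to 11.9), higher in 16 of 16 chromosomes (two-sided exact sign-flip permutation test, p = 3.1e-05, adjusted p = 7.6e-05 over 5 tests). With 16 chromosomes, no smaller p can be reached. When the mask was recomputed from the criteria as written in the study's methods, the difference was 5.69 percentage points, with 15 of 16 chromosomes higher, and on the plus strand alone 12 of 16 chromosomes were higher. Against the rest of the same chromosomes, masked at 2.65 ± 0.0662% (SD, n = 16), the centers were higher by 9.90 percentage points (95% interval 7.26 to 12.5), again on 16 of 16 chromosomes (two-sided exact sign-flip permutation test, p = 3.1e-05, adjusted p = 7.6e-05). This difference was 6.06 percentage points with the recomputed mask, on 16 of 16 chromosomes, and on the plus strand alone 12 of 16 chromosomes were higher.

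The central shares themselves covered a wide range. The lowest was 5% at CEN12, the median 11.9% and the highest 20.4% at CEN7. Of the 240 central positions, 49 were masked at CEN7, 47 at CEN6 and 46 at CEN16, followed by 43 at CEN2 and 42 at CEN3. These 5 stood apart from the remaining centromeres, the next of which, CEN10 and CEN14, had 30 each. At the lower end, 12 positions were masked at CEN12, 17 at CEN11 and 18 at CEN9. The flanks ranged from 1.57% at CEN15 over a median of 3.02% to 4.71% at CEN6, so that the lowest center, CEN12, was above the highest flanks. The rest of the chromosomes lay between 2.50% and 2.75%. The base composition of the centers was much more uniform than their masked share, with A+T between 80% at CEN13 and 89.2% at CEN9. Over the 16 centers, the A+T count and the masked count had a Pearson r of 0.057 and a Spearman rho of -0.0209, given as a description because both are counted from the same bases.

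**Figure D2:**
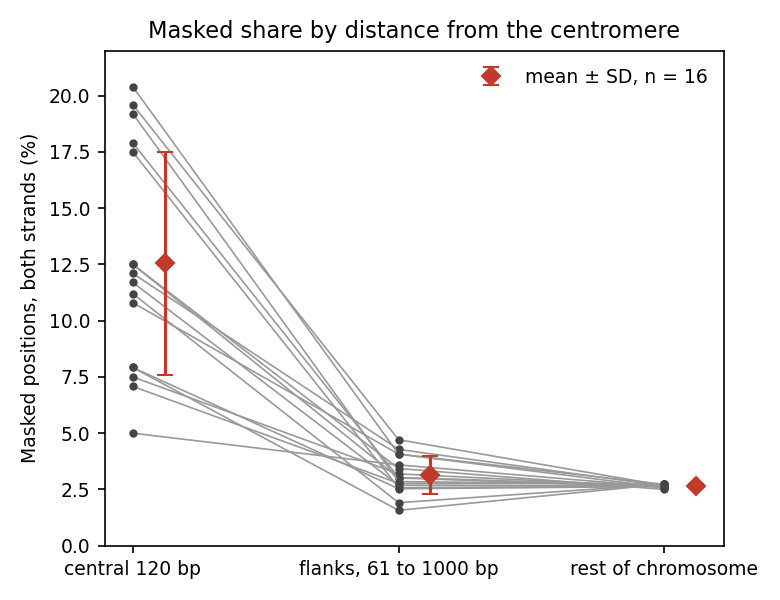
Masked share in percent of both strands (y axis) in the central 120 bp, the flanks and the rest of the chromosome for each of the 16 chromosomes. All 16 centers lie between 5% and 20.4%, above the flanks (1.57% to 4.71%) and the rest (2.50% to 2.75%).

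Runs in the centers had a higher median length. The 88 central runs had a median length of 3 bp and a mean of 5.45 bp, and 15.9% of them were at least 10 bp long. The 601 runs of the flanks had a median of 2 bp and a mean of 3.17 bp, with 5.16% of at least 10 bp. For the 221009 other nuclear runs, the median was 2 bp, the mean 2.91 bp and the share of at least 10 bp 4.38%. Runs of a single position made up 29.5% of the central runs, 40.3% of the flank runs and 44.7% of the others. Each centromere had between 31 runs (CEN10) and 52 runs (CEN11) in its window, with a median of 44. At the limit of the window, the outermost members started 998 bp from the center of CEN13 (2 bp long) and 996 bp from that of CEN3 (9 bp long), while the nearest runs left out started at 1004 bp from CEN10 and from CEN15, each 1 bp long. No test was made on lengths, since runs of 1 centromere share their sequence.

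Within the center, masked positions were found mostly in CDEII, which is also the longest element. This spacer, 76 to 85 bp long and 93.7% A+T, had 385 of 2646 positions masked (14.6%), and it was masked on both strands in 16 of 16 centromeres. CDEII of CEN6 (26.5%) and CEN16 (26.2%) had the highest shares and that of CEN12 the lowest (6.47%). CDEIII, 25 bp long and 71.2% A+T, had 92 of 800 positions masked (11.5%), spread over 12 of 16 centromeres. The highest share was 40% at CEN7, with 5 sense and 15 antisense positions, followed by 34.0% at CEN2. The share of CDEIII was above that of CDEII at CEN1, CEN2, CEN3, CEN4, CEN5 and CEN7, and below it at the remaining centromeres. CDEIII of CEN10, CEN11, CEN12 and CEN13 had no masked position. For 12 of the 92 CDEIII positions (13%), the next 6 bp reached beyond the annotated centromere. The mask also weighs the next 18 bp, and how often those reached beyond it was not counted. Of all central masked positions, 70.1% met only the criterion on 18 bp that is described below, so the 13% leaves out most of the masking. CDEI, 10 bp long and 56.9% A+T, had only 3 of 320 positions masked (0.938%), 1 each at CEN6, CEN11 and CEN12.

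The conserved letters of CDEI and CDEIII served as landmarks. NTCACNTG was searched on both strands and occurred in the center of 16 of 16 centromeres, on the sense strand of CDEI in 15 of them, and in 4.02% of 100305 other windows of 120 bp. CCGAA was present on the sense strand of CDEIII in 16 of 16 centromeres, against 12.4% of the other windows on either strand, and the longer TTCCGAA, which contains it, in 14 of 16, against 1.42%. At 9 of the 16 centromeres, at least 1 position of the CCGAA match was masked on either strand, as in the CEN7 sequence above, where the run starts within its complement. These matches describe the letters of the window only.

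Finer steps of 10 bp, pooled over the 16 centromeres, showed where each strand was masked. On the sense strand, the share was highest, at 25%, from 1 to 10 bp on the CDEIII side of the center. On the antisense strand, 26.2% were masked from 11 to 20 bp on that side, and 25.6% from 21 to 30 bp on the CDEI side. From 31 to 40 bp on the CDEIII side, 0 of 160 sense positions and 25 of 160 antisense positions (15.6%) were masked. The order was turned at 51 to 60 bp, with 13.8% of sense and 0.625% of antisense positions. Both steps rest on part of the centromeres. The antisense positions at 31 to 40 bp lay only at CEN1, CEN2, CEN4, CEN7 and CEN16. The sense positions at 51 to 60 bp lay only at CEN2, CEN3, CEN5, CEN7 and CEN8. These steps were not tested singly.

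The mask combines a criterion on the next 6 bp with a criterion on the next 18 bp, and the share of each was unlike in the centers and elsewhere. Read as at least 4 As with no C or T in 6 bp and at least 12 As in 18 bp, 70.1% of the 482 central masked positions met the 18 bp criterion only, 16.6% the 6 bp criterion only, 10.6% both and 2.70% neither. In the flanks, 25.3% of 1890 masked positions met the 18 bp criterion only and 60.7% the 6 bp criterion only. In the rest of the nuclear genome, these shares were 24% and 63.0%. Most central positions were thus followed by many As within 18 bp but not by a block of at least 4 As and otherwise Gs in the first 6 bp. The longest uninterrupted run of As in the 6 sequences above was 8. By the stricter thresholds given in the study's methods (more than 4 and more than 12 As), 57.9% of central, 50.2% of flank and 45.3% of other masked positions qualified.

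Central windows were next set beside all other windows of 120 bp in the nuclear genome. At least 1 masked position was present in 16 of 16 centers, against 88.2% of the 100305 other windows, which leaves this count near the background. Both strands had masked positions in 16 of 16 centers, against 35.3% of the other windows. At least 24 of 240 positions (10%) were masked in 11 of 16 centers, against 3.99% of the other windows. The median share was 11.9% in the centers, 1.67% in all other windows and 2.50% in the 20464 windows outside annotated genes. Among the 253 other windows with an A+T content in the range of the centers (80% to 89.2%), the median was 11.7% with quartiles of 6.67% and 16.7%, and 60.1% had at least 24 positions masked. Of the 16 centers, 8 were above that median, but these other windows had a median A+T of 80.8%, against 85.8% in the centers. Within this range, the 13 centers of 85.0% or more averaged 13.1%, against 15.9% for the 30 other windows, and the 3 centers below it averaged 10.3%, against 11.7% for 223 windows. These windows describe the genome, and no test was made on them.

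**Figure D3:**
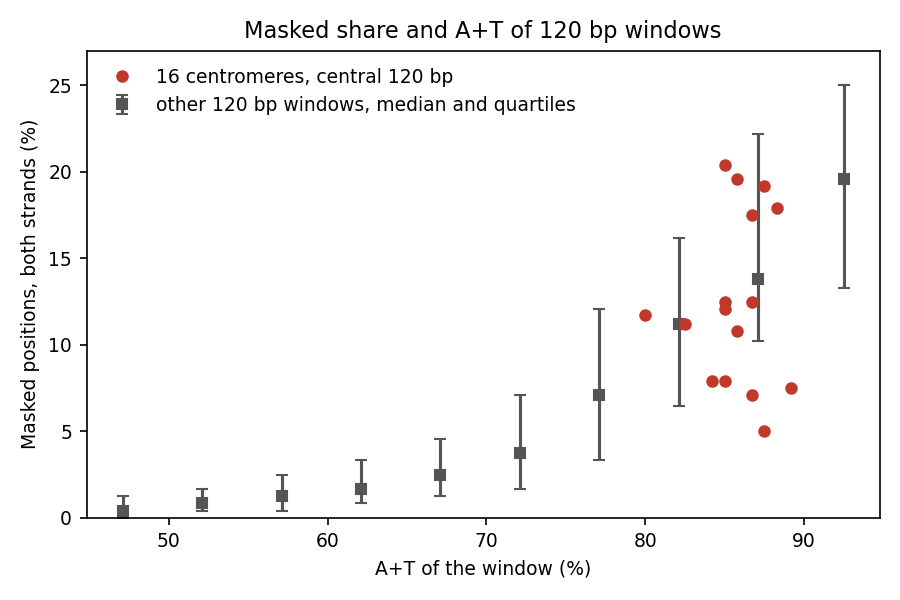
Masked share in percent of windows of 120 bp (y axis) by their A+T content in percent (x axis), as the median with quartiles for other nuclear windows and as 1 point for each of the 16 centers. The centers, at 80% to 89.2% A+T, lie among other windows of the same A+T range. Other windows of 85% to 89.2% A+T, where 13 centers fall, had a median of 13.8%. Those of 80% to 84.2%, where 3 fall, had a median of 11.2%.

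The next comparison asked whether the strands of the center differ. Single centromeres were strongly uneven, but in either direction. The sense strand averaged 11.4 ± 9.74% and the antisense strand 13.8 ± 9.16% (SD, n = 16). The difference was -2.40 percentage points (95% interval -11.0 to 6.18), with sense higher at 7 centromeres and lower at 9, and it did not pass the test (two-sided exact sign-flip permutation test, p = 0.563, adjusted p = 0.563). Of 120 positions per strand, CEN6 had 43 masked on the sense strand and 4 on the antisense strand, CEN3 34 and 8, and CEN5 23 and 6. The opposite was found at CEN14 with 3 sense and 27 antisense positions, at CEN4 with 2 and 25, at CEN1 with 2 and 24, and at CEN13 with 5 and 23. At 10 of 16 centromeres, 1 strand had at least 3 times as many masked positions as the other. The same count was not made for other windows, so it cannot be read as a trait particular to centromeres. CEN11 (8 sense, 9 antisense) and CEN15 (10 sense, 9 antisense) were nearly even.

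**Figure D4:**
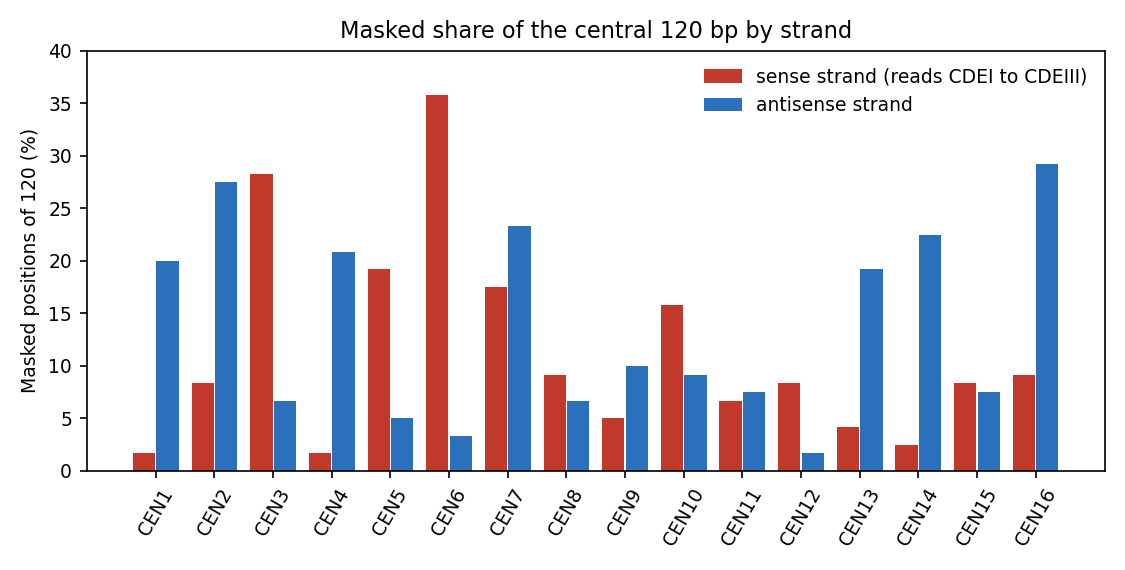
Masked share of the central 120 bp on the sense and antisense strands (bars, percent of 120 positions) for each of the 16 centromeres. CEN6 leads on the sense strand with 35.8% against 3.33%, and CEN16 on the antisense strand with 9.17% sense against 29.2% antisense.

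The bases of the strands were counted as well. Counted on the sense strand, the surplus of A over T ranged from -16 bases at CEN2 to 23 bases at CEN6, and 7 centromeres had more A and 9 more T. The sign of this surplus was that of the strand difference in masked positions at 14 of 16 centromeres, with a Pearson r of 0.896 and a Spearman rho of 0.81 over the 16. Both numbers come from the same bases and the mask selects As by definition, so that this relation is a description. Pooled over all centers, the sense strand held 816 As and 829 Ts.

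Outside the center, the flanks were compared with the rest of the chromosome. They were masked slightly more, but the difference did not pass after adjustment. The flanks averaged 3.14 ± 0.852% and the rest 2.65 ± 0.0662% (SD, n = 16), a difference of 0.487 percentage points (95% interval 0.0187 to 0.956), with 12 chromosomes higher and 4 lower (two-sided exact sign-flip permutation test, p = 0.0438, adjusted p = 0.073). By the same exact test, it passed without chromosome IV (0.574 percentage points, adjusted p = 0.031) or without chromosome XV (0.598 percentage points, adjusted p = 0.0175). In the other 14 cases of leaving out 1 chromosome it did not pass, down to 0.384 percentage points without chromosome VI (same exact test, adjusted p = 0.145). The share of DNA outside annotated genes moved with it, at 50.2% of flank positions and 26.4% of the rest. Its part in the result was not tested. Outside genes, 3.98% of flank positions and 4.36% of the rest were masked, on the sense strand of genes 3.58% and 3.06%, and on their antisense strand 1.01% and 1.05%. With flanks and rest both taken outside genes, which was added once the values were known, flanks minus rest came to -0.0755 percentage points (two-sided exact sign-flip permutation test, adjusted p = 0.879).

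The flanks on either side of the center did not differ past the test. The CDEIII side averaged 3.48 ± 1.67% and the CDEI side 2.80 ± 1.07% (SD, n = 16), a difference of 0.685 percentage points (95% interval -0.508 to 1.88), with 8 chromosomes higher, 7 lower and CEN4 tied (two-sided exact sign-flip permutation test, p = 0.246, adjusted p = 0.308). Single centromeres reached from -2.87 percentage points at CEN2 to 5.16 at CEN5.

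By distance, the masked share of both strands pooled fell off steeply beyond the center. In all 20 bins of the flanks, the share of both strands, between 1.81% and 7.58%, was below that of the center. On the sense strand alone, 19 of the 20 bins were below the 11.4% of the center. The 7.58% belonged to the bin adjoining CDEIII, from 61 to 100 bp, where the sense strand was at 12.5 ± 16% and the antisense strand at 2.66 ± 3.70% (SD, n = 16). Sense positions were masked there at 10 of 16 centromeres, so the mean rests on part of the centromeres. In the bin of 100 bp that ends 200 bp from the center on the CDEI side, the sense strand was at 7.25 ± 8.68% and the antisense strand at 0.938 ± 1.44% (SD, n = 16). In the flanks as a whole, 3.71% of sense and 2.57% of antisense positions were masked. Bins were not tested singly.

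**Figure D5:**
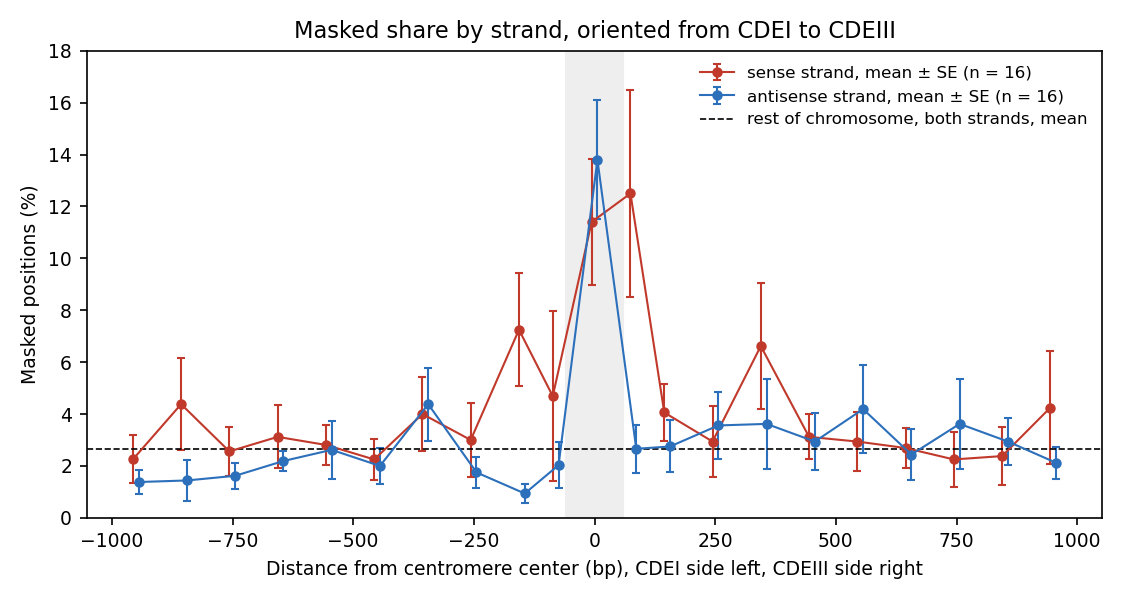
Masked share in percent (y axis) on the sense and antisense strands by distance from the center in bp (x axis, CDEI side negative), as the mean of 16 centromeres with its SE, and the share in the rest of the genome as a dashed line. The antisense strand is highest in the center, at 13.8%, whereas the sense strand is at 11.4% in the center and at 12.5% in the bin adjoining CDEIII.

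The 5 longest runs of the windows were followed in sequence, because they are the places where 3′ ends are removed over the longest continuous stretch. They are printed on their own strand from RefSeq R64 (sacCer3), with the run in capitals and the 18 bases after it in lower case. The run of CEN6 lay in CDEII (chrVI:148550-148587, plus strand, sense, 38 bp), and the others lay in flanks outside genes: CEN6 (chrVI:148947-148983, minus strand, antisense, 37 bp), CEN1 (chrI:152103-152138, minus strand, antisense, 36 bp), CEN12 (chrXII:150967-150996, minus strand, sense, 30 bp) and CEN14 (chrXIV:629138-629166, plus strand, sense, 29 bp).
CEN6 in CDEII: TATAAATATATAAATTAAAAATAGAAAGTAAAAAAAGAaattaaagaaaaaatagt
CEN6 flank: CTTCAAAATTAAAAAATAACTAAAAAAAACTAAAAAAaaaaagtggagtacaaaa
CEN1 flank: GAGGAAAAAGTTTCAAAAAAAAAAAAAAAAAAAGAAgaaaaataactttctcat
CEN12 flank: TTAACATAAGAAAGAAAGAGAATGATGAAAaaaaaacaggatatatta
CEN14 flank: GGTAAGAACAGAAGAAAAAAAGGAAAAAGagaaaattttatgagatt

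The runs differed in composition. The run of CEN6 in CDEII joined As and Ts, that of CEN1 held a long stretch of uninterrupted As, and that of CEN14 was made mostly of As and Gs. Their nearest positions were 379 bp from the center for the CEN6 flank, 580 bp for CEN1 and 322 bp for CEN14, all on the CDEIII side, whereas the run of CEN12 began 80 bp from the center on the CDEI side.

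Genes entered the windows of 15 centromeres, with 2 protein-coding genes each and 30 in all. CEN5 had none, as its nearest genes, IRC22 and MNN1, ended 1067 bp and 1475 bp from the center. Of the 30, 20 were transcribed toward the centromere and 10 away from it. The masked share of the gene's own strand within the window ranged from 0.574% to 13.3%, with a median of 3.34%, and in 27 of the 30 genes it was above that of the opposite strand. The same held, over the whole gene, for 84.6% of the 5972 protein-coding genes outside the windows, so the count of 27 is near the background. The 5 genes with the most masked positions on their own strand included both neighbors of CEN6. LOC1 (YFR001W, chrVI:149110-149724, plus strand), a nuclear protein of ribosome assembly and of ASH1 mRNA localization, had 54 of 459 bp masked (11.8%) and 0 on the opposite strand. DEG1 (YFL001W, chrVI:147131-148459, plus strand), a tRNA pseudouridine synthase, had 32 of 891 bp masked (3.59%), and its end lay 109 bp from the center, the nearest of all named genes. DOM34 (YNL001W, chrXIV:627456-628616, plus strand), which rescues stalled ribosomes, had 45 of 800 bp masked (5.62%). EFM5 (YGR001C, chrVII:497133-498034, minus strand), a methyltransferase of a translation elongation factor, had 44 of 847 bp masked on its own strand (5.19%) and 32 on the opposite strand. VPS1 (YKR001C, chrXI:440608-442722, minus strand), a dynamin-like GTPase of vacuolar sorting, had 41 of 580 bp masked (7.07%).

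The remaining neighbors of the 6 named centromeres had 3 to 30 masked positions on their own strand. At CEN7, EFM5 lay 154 bp from the center and ERG26, a sterol biosynthesis enzyme, 477 bp on the other side, with 3 of its 523 bp masked (0.574%), the lowest share of the 30 genes. At CEN16, HAT1, a histone acetyltransferase 286 bp away, had 22 of 714 bp masked (3.08%) and CIT3, a mitochondrial citrate synthase 362 bp away, 27 of 639 bp (4.23%). At CEN9, SGN1, an RNA-binding protein, had 30 of 545 bp masked (5.50%) and YIL001W 12 of 794 bp (1.51%). At CEN12, YLR001C had 20 of 499 bp masked (4.01%) and DNM1, a dynamin-related GTPase of mitochondrial fission, 9 of 276 bp (3.26%). At CEN11, MET14, the adenylylsulfate kinase of sulfate assimilation, had 4 of 198 bp masked (2.02%). Annotated replication origins overlapped the windows of CEN2 (ARS208), CEN3 (ARS308) and CEN12 (ARS1208).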

How the data were processed

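The authors selected the positions from the sacCer3 sequence by A-rich criteria for the 6 bp or 18 bp downstream and removed them from the 3′ end tracks. The deposited list gives the start, end and strand of each run of masked positions, with no measured value, so depth does not apply. Its members, gene groups and tests were chosen with earlier results of these data known. All 292021 nuclear positions of R64 that meet the criteria as written were in the deposited list. The list also holds positions that do not meet them. Of its masked nuclear positions outside the 16 windows, 45.3% met the criteria as written. Masked positions were counted by strand and zone for each of the 16 chromosomes. Differences were tested by a two-sided exact sign-flip permutation over chromosomes (65536 patterns), with Benjamini-Hochberg adjustment over 5 tests and a threshold of 0.05. Intervals are 95% t intervals of the mean difference. The test was checked on simulated data. Named were the 3 highest and 3 lowest centers, the 5 longest runs, the 5 flank genes with most masked positions on their own strand, and the nearest genes of the named centers. Other centromeres named as examples were chosen after their values were seen. Alternatives changed the mask, the central and flank widths, the strand, the bounds, the gene filter and the chromosomes used. Python 3.11.15, numpy 2.4.6, scipy 1.17.1, pandas 2.3.3 and matplotlib 3.10.9 were used.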

Additional observations from a re-analysis of the deposited data

How the results depend on the processing

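The 5 comparisons were repeated under 40 alternatives, not counting those that left out a chromosome or changed the flank width for center against rest, where it does not enter. Of these, 33 changed neither the direction nor the call. The centers stayed above the flanks (5.69 to 12.1 percentage points; 8.95 to 9.94 without 1 chromosome) and above the rest (6.06 to 12.7; 9.38 to 10.4). Both directions were largely given by the choice of an AT-rich center, so that their stability is no independent evidence. The remaining 7 all concerned flanks against the rest. That difference passed with the recomputed mask (0.371 percentage points), a center of 80 bp (0.567), flanks to 500 bp (0.978), flanks outside genes (1.60) and the plus strand only (0.785). It turned negative with the rest taken outside genes (-1.19, adjusted p = 0.00076 by the exact sign-flip permutation test) and with both outside genes (-0.0755, chosen after seeing the data). The values of 1.60 and -1.19 come from a gene filter on 1 side only. Positions outside genes were masked more than either strand of genes, at 3.98% in the flanks and 4.36% in the rest. The signs of these values were thus largely set by the filter. Leaving out single chromosomes gave 0.384 to 0.598 for flanks minus rest. That difference stayed positive but did not pass with flanks to 2000 bp (0.113), the minus strand only (0.19) and a center of 160 bp (0.452). Nor did it pass by the exact sign test (0.487). The sense strand stayed below the antisense strand (-4.72 to -0.117) and the CDEIII side above the CDEI side (0.11 to 0.922), none past the threshold. Selecting runs by overlap with the window also gave 689 members. No paired analysis was possible because the list holds no values of single libraries whose replicate numbers could be matched, and the tests instead compared zones or strands within each chromosome. The mask shows where 3′ ends were removed, not where they occur, and with 16 chromosomes the smallest possible p is 3.1e-05.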
